A study of Mus musculus with 24 samples.

Results

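The potassium channel genes of the mouse were examined in 24 RNA libraries of developing cortex and of cells cultured from it. They were taken as the genes whose symbol is Kcn followed by letters and a number and whose mean normalized read count over the 24 libraries was at least 1. Of 98 such symbols, 80 met this level, out of 54658 genes in the table and 20141 genes at that level. The 80 comprised 33 pore-forming subunits of voltage-gated channels, 13 auxiliary subunits, 14 inward rectifiers and 9 channels with 2 pore domains. A further 8 were channels that answer to calcium, sodium or pH inside the cell, called calcium- or sodium-activated below. The last 3 were transcripts that overlap a channel gene on the opposite strand. Just inside the limit were *Kcnk13* (1.04), *Kcng2* (1.21) and *Kcns3* (1.27), and just outside were *Kcns1* (0.934) and *Kcnab3os* (0.445), with 7 of the 18 symbols left out at 0 in every library.

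The study asked how loss of CEP135, a centriole protein mutated in a form of primary microcephaly, affects the developing cortex. The Cep135 (-/-) embryos are homozygous for a germline deletion of 8 bases in the second exon, carried by every cell of the embryo, and the Cep135 (+/+) embryos served as controls. Dorsal telencephalon was taken from 3 mutant and 3 control embryos at E11.5 and from 3 and 3 at E14.5, untreated in each case and with no cell type sorted out. Cells of the same 6 E14.5 cortices were dissociated and grown as incipient neurospheres, free-floating clusters of cortical progenitors and their progeny in medium with EGF and FGF2, and sequenced after 12 and 24 hours, which gives 8 groups of 3 libraries. The cortex of mutant 6 is given as E11.5 in 1 label and as E14.5 in the others, and was used as E14.5. By their Xist and Y-linked transcripts the E14.5 controls were all male, mutants 1 and 2 female and mutant 6 male, so that genotype and sex overlap in part. The 2 ages come from different litters, so age and litter cannot be told apart.

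Potassium channels let potassium ions leave or enter the cell along their gradient and so set the resting potential and end each action potential. Voltage-gated channels (Kcna to Kcnd, Kcnh, Kcnq) open on depolarization, while the silent subunits Kcnf, Kcng, Kcns and Kcnv form channels only together with other pore subunits and alter them. Auxiliary subunits (Kcnab, Kcne, Kcnip, Kcnmb) bind the pore proteins and change their gating or their way to the membrane. Inward rectifiers (Kcnj) and 2-pore-domain channels (Kcnk) carry resting current, and Kcnma1, Kcnn, Kcnt and Kcnu channels answer to calcium, sodium or pH inside the cell. In the cortex, voltage-gated potassium currents grow as newborn neurons leave the ventricular zone and mature.

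Promoter sequences of 4 members whose values are central below are shown because they moved in different ways: *Kcnma1* was higher at E14.5 and lower on culture, *Kcnc1* higher at both steps, *Kcnn4* lower at E14.5 and higher on culture, and *Kcnj8* lower on culture. RefSeq sequences (GRCm38.p6, 250 bases before to 50 after the gene start, read in the direction of the gene) were found for 57 of the 80 members, too few for a share over the members to be given. Capitals mark the letters GGGCGG (a GC box), CAGATG or CAGCTG (both E-boxes) on either strand, which overlap only as the 2 GC boxes of *Kcnma1* that share bases. Of all 32851 promoters of this length in the table, 35.7% held GGGCGG, 17.2% CAGATG and 16.3% CAGCTG, and the median number of CG pairs was 7. The window of *Kcnma1* lies at chr14:24004156-24004455 on the minus strand, those of *Kcnc1* at chr7:46396218-46396517 and *Kcnn4* at chr7:24370013-24370312 on the plus strand, and that of *Kcnj8* at chr6:142571565-142571864 on the minus strand. In GENCODE vM21 *Kcnma1* runs from 23289431 to 24014491, so that its RefSeq window lies inside the gene and not at the GENCODE start.
Kcnma1: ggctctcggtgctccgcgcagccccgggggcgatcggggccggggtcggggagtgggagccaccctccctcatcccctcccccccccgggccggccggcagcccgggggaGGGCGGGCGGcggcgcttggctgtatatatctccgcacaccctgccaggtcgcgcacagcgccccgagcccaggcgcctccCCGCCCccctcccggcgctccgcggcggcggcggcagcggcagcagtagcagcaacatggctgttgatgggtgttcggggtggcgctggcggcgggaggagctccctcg
Kcnc1: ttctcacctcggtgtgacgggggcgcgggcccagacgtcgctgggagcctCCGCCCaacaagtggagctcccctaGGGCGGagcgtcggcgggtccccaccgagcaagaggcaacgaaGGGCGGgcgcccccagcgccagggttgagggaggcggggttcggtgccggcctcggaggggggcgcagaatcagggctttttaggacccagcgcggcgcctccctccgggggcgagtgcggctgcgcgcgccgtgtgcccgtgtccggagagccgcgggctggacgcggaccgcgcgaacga
Kcnn4: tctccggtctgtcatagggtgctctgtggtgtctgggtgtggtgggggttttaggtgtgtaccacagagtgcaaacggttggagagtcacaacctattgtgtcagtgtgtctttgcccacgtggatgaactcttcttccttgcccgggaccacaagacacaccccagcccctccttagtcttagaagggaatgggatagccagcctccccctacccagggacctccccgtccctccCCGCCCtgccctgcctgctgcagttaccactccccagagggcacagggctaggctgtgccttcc
Kcnj8: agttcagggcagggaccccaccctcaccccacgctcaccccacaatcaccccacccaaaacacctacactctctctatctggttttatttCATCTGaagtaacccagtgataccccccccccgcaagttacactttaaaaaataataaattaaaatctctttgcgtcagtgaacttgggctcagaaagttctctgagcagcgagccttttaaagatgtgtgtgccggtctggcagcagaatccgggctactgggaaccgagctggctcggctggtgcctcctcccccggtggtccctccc
The windows of *Kcnma1* and *Kcnc1* held 36 and 41 CG pairs and 3 GC boxes each. Those of *Kcnn4* and *Kcnj8* held 6 and 9 CG pairs, with 1 GC box in *Kcnn4* and 1 CAGATG E-box in *Kcnj8*. A match is a description of the letters only, and the values of these genes are given below.

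The libraries were primed at the polyA tail and read from the 3′ end, so that each transcript gives about 1 fragment whatever its length. They held 4732781 to 11645213 reads on genes. *Cep135* itself was at 246 to 336 in the E11.5 mutants and 293 to 375.5 in the controls, and at 173 to 283 and 171 to 271 at E14.5; a 3′ tag lies outside the deleted bases and so checks nothing of the genotype. Markers of the dorsal telencephalon (4 of 4 detected in every group, none at 0) had sums of 1599.8 to 2486.9 in cortex and 1370.5 to 2330.8 in culture. The cortices also held transcripts of blood vessels, microglia, blood and choroid plexus, and their summed markers are given beside results that move with them.

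Most members had low levels. Of the 80, 49 had a mean of at least 10 and 14 of at least 100 normalized read counts, and 43 were above 0 in all 24 libraries. The highest mean in a class was 881.5 among the overlapping transcripts, 615 among the 2-pore-domain channels, 145 among the auxiliary subunits, 136 among the calcium- or sodium-activated channels and 46.2 among the inward rectifiers, whose median member was at 4.87. One read corresponded to 0.645 to 1.69 normalized read counts, so that for many inward rectifiers a library held a few reads. Members of high level differed in how steady they were over the groups. *Kcnk10* (TREK-2), a stretch- and lipid-sensitive resting channel, lay between 384 and 858 in all 24 libraries. *Kcnq1ot1*, an antisense transcript, lay between 421 and 1580.9. *Kcnc1*, in contrast, had a median of 40.8 at E11.5 and of 1298.8 after 24 hours of culture.

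Between E11.5 and E14.5, as neurons accumulate in the cortical wall, most potassium channel genes rose. Of the 80 members, 51 (63.75%) were higher at E14.5 and 5 (6.25%) lower at an adjusted p under 0.05 from limma, and 24 did not pass the test. Of all 20141 genes tested, 39.7% were called between the ages, 18.6% higher and 21.1% lower. The median log2 difference was 1.22 over the members and -0.03 over all genes. With only the controls 42 members were called (24.1% of all genes), and 42 with only the mutants (25.9%), 36 of them in both, and all 56 had the same sign in both genotypes. In 38 of the members every E14.5 library lay above every E11.5 library (11.7% of all genes), and in 4 below (10.6%). Age was tested in 6 against 6 embryos with genotype as a term.

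**Figure D1:**
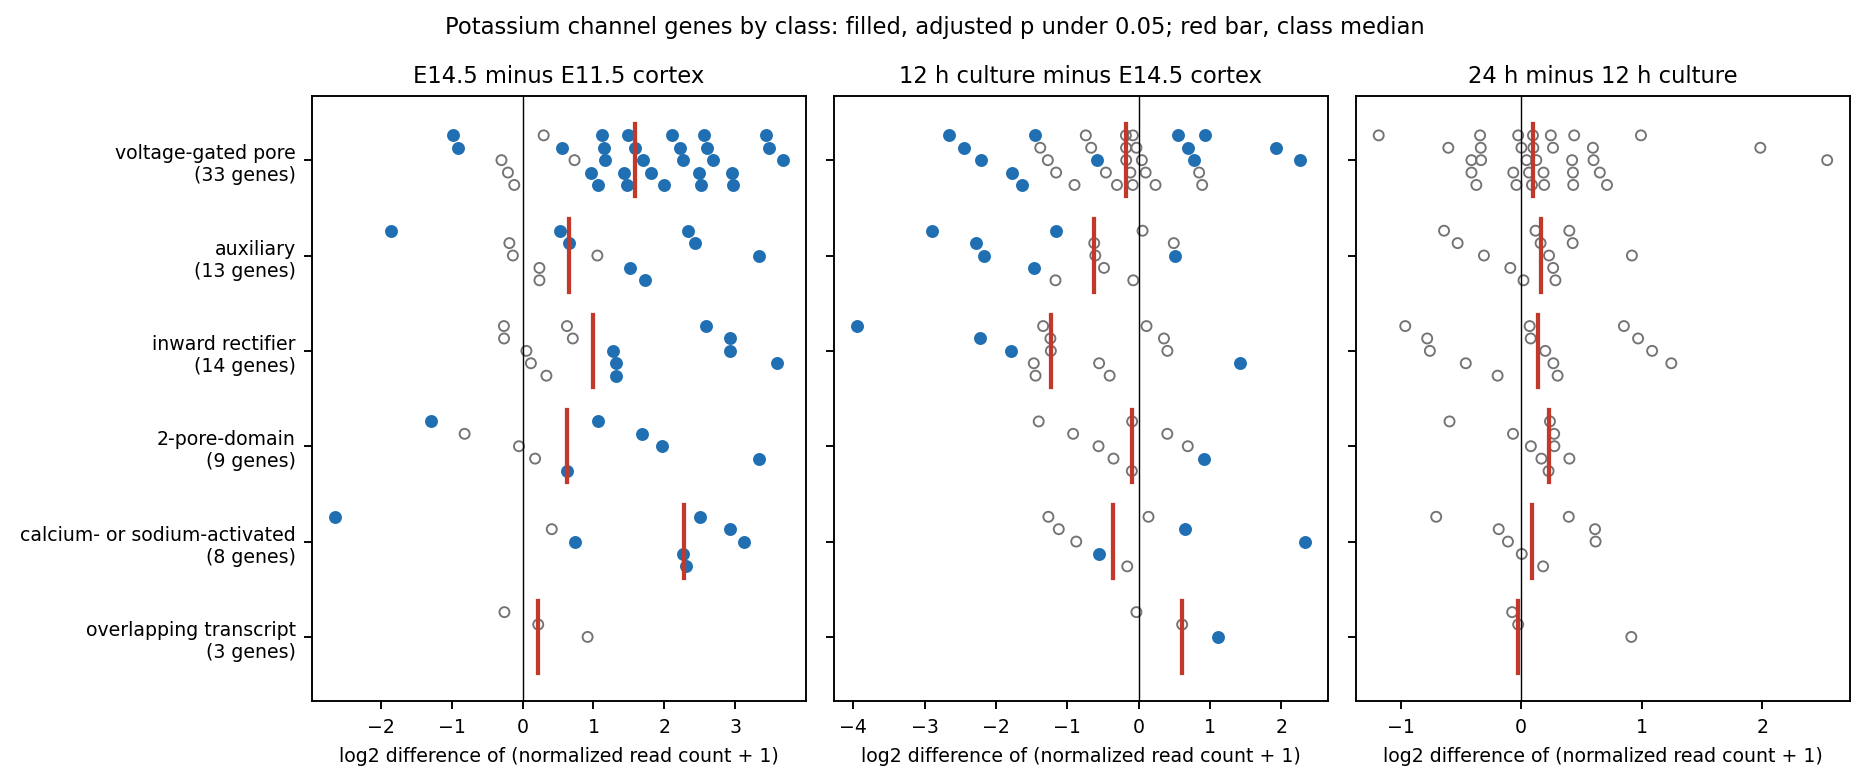
Log2 difference of the normalized read count plus 1 for each of the 80 members, by class (rows), between E14.5 and E11.5 cortex (left), 12-hour culture and E14.5 cortex (middle) and 24- and 12-hour culture (right). Filled points passed an adjusted p under 0.05 and red bars are class medians: 51 filled points lie right of 0 on the left, 12 right and 16 left of 0 in the middle, and none are filled on the right.

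Among the voltage-gated pore subunits 26 of 33 rose and 2 fell, with a median of 1.59. All 4 Kcnc members (Kv3 channels, which repolarize fast), all 3 Kcnd members (Kv4, the A-type current) and 5 of 6 Kcna members (Kv1, mostly axonal) were higher at E14.5. *Kcnq3*, a subunit of the M-current that restrains repetitive firing, ranged over 46.8, 52.2 and 65.3 at E11.5 and 329.6, 412 and 547 at E14.5 (lowest, median, highest). The 6 libraries of each age lay far apart, and the log2 difference was 2.96 (SE 0.11, adjusted p = 9.7e-12 from limma), or 7.77-fold on the scale of the value plus 1.

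The silent subunit *Kcng1* was nearly absent at E11.5, with 3.35, 7.79 and 10.97, and reached 59.5, 95.5 and 120.0 at E14.5. It rose 10.8-fold, a log2 difference of 3.44 (SE 0.24, adjusted p = 8.0e-09 from limma), without overlap between the ages. *Kcnb2*, a delayed rectifier with which Kcng subunits assemble, went from 19.4, 26.3 and 33.3 to 95.3, 127 and 166, a log2 difference of 2.27 (SE 0.17, adjusted p = 1.7e-08 from limma). Other silent subunits rose as well: *Kcnv1* by 3.48 (SE 0.39), *Kcns2* by 2.49 (SE 0.44) and *Kcnf1* by 1.43 (SE 0.49), whereas *Kcng2* and *Kcns3* lay between 0 and 4.52 in the cortices and did not pass.

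Calcium- and sodium-activated channels had the highest class median, 2.29, with 6 of 8 higher and 1 lower. *Kcnma1*, the large-conductance BK channel, lay between 16.8 and 33.5 at E11.5, with a median of 27.0, and between 150.3 and 261 at E14.5, with a median of 207.5. Every E14.5 library exceeded every E11.5 library several times over, and the log2 difference was 2.92 (SE 0.16, adjusted p = 4.1e-10 from limma). *Kcnn2*, an SK channel, rose by 3.12 (SE 0.31), and the sodium-activated *Kcnt1* by 2.50 (SE 0.49), while *Kcnt2* had a difference of 0.41 (SE 0.29) that did not pass.

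All 4 Kcnip members, calcium-binding partners of Kv4 channels, rose, and none of the 3 Kcnab members passed. *Kcnip1* was at 21.6, 39.6 and 48.5 at E11.5 and at 133.9, 205 and 226 at E14.5. The ages did not overlap, and the log2 difference was 2.43 (SE 0.16, adjusted p = 4.3e-09 from limma). *Kcne2* was at 0 in all 6 E11.5 libraries and between 3.49 and 26.5 at E14.5, so that its log2 difference is at least 1.53 against a floor of 3 reads per library. The median over the members was 1.22 with *Kcne2* at that bound too.

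Of the 14 inward rectifiers, 7 rose and none fell. *Kcnj3*, a pore subunit of the G protein-gated GIRK channels, had the largest change of the class, 3.60 (SE 0.31), from 1.12, 2.68 and 5.44 to 29.4, 42.5 and 74.1. *Kcnj11*, the pore of the ATP-sensitive channel, rose by 2.93 (SE 0.38). *Kcnj13*, a channel of the choroid plexus epithelium, rose by 2.93 (SE 0.51) too, but was at 1.57 in the E14.5 cortex of mutant 6 against 7.85 to 23.2 in the other 5. The summed choroid plexus markers, 5 of 5 detected, were 891 in that same cortex and 3264.0 to 7860.0 in the other 5; their part in the *Kcnj13* result was not tested.

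Of the 9 2-pore-domain channels, 5 rose and 1 fell. *Kcnk3* (TASK-1), an acid-sensitive resting channel, went from 2.01, 5.68 and 7.93 to 44.7, 53.2 and 92.6. That is a log2 difference of 3.34 (SE 0.25, adjusted p = 1.5e-08 from limma), again without overlap. Its relative *Kcnk9* (TASK-3) rose by 1.97 (SE 0.22), *Kcnk2* (TREK-1) by 1.07 (SE 0.12) and *Kcnk10* (TREK-2) by 0.62 (SE 0.12).

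Only 5 members were lower at E14.5. *Kcnk5* (TASK-2), known from kidney epithelium, lay between 57.7 and 74.7 at E11.5, with a median of 62.8, and between 18.9 and 30.5 at E14.5, with a median of 26.0. The ages were clearly separate, and the log2 difference was -1.29 (SE 0.16, adjusted p = 5.6e-06 from limma). *Kcnn4*, the intermediate-conductance channel of blood cells and epithelia, went from 11.6, 14.3 and 20.2 to 0, 2.04 and 3.31, a log2 difference of -2.65 (SE 0.39, adjusted p = 3.6e-05 from limma), again without overlap. Summed erythroid markers, 5 of 5 detected and none at 0, were 33496.9 to 52289.7 at E11.5 and 15792.1 to 19986.5 at E14.5, also without overlap. Among them *Hbb-y* had means of 32247.4 (controls) and 30519.5 (mutants) at E11.5 and 4518.4 and 6807.7 at E14.5. *Hbb-bt* went the other way, from 2584.3 and 2323.6 to 6166.1 and 5406.5. The part of the erythroid markers was not tested.

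*Kcnh2* (ERG1), best known from the heart, fell from a median of 38.8 to 19.95, by 0.91 on the log2 scale (SE 0.19, adjusted p = 0.0012 from limma). *Kcne3* fell from a median of 8.49 to 2.28, by 1.86 (SE 0.50, adjusted p = 0.0065 from limma), with some overlap. Both missed the threshold with the controls alone (adjusted p = 0.106 and 0.153 from limma). *Kcnq1*, the heart and epithelial relative of *Kcnq3*, fell by 0.99 (SE 0.32, adjusted p = 0.022 from limma), from 5.05 to 10.3 down to 1.45 to 4.71. Its call was lost without E14.5 control 4 (adjusted p = 0.0583) or E11.5 mutant 1 (adjusted p = 0.0540), within either genotype, with all genes above 0 (0.0897) and with all 24 libraries in one fit (0.0883), all from limma.

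**Figure D2:**
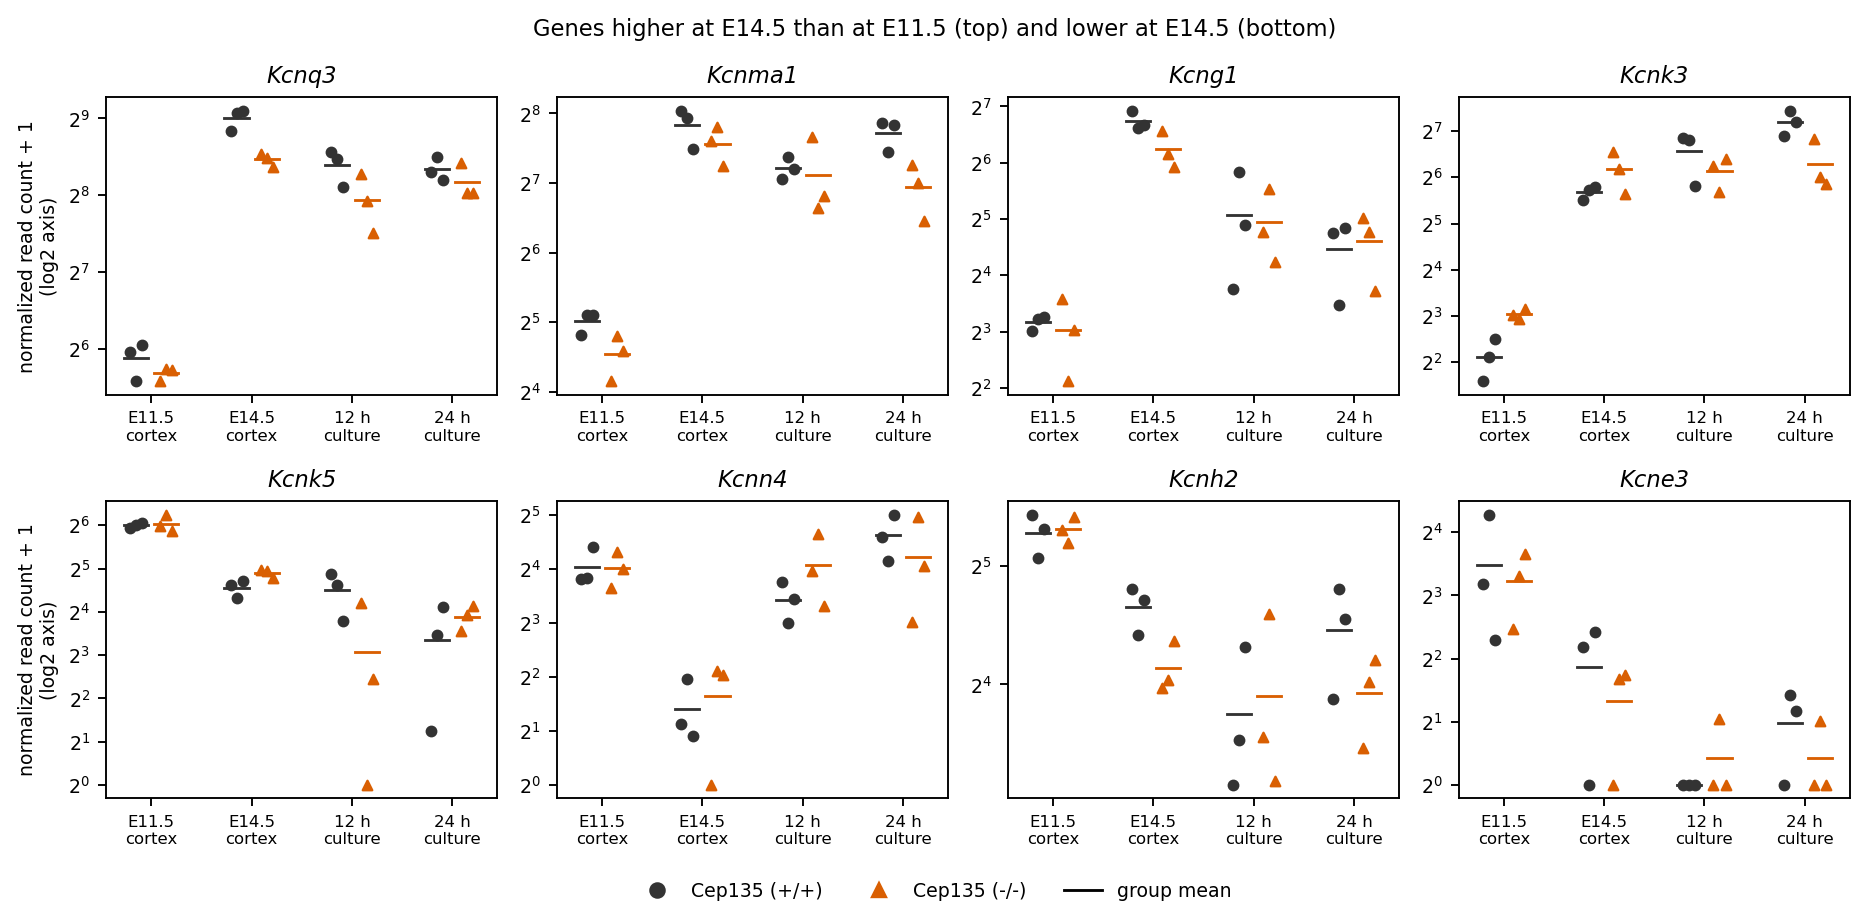
Normalized read count plus 1 (log2 axis) in each of the 24 libraries for 4 members that were higher (top) and 4 that were lower (bottom) at E14.5 than at E11.5, by group and genotype, with group means as bars. *Kcnq3*, *Kcnma1*, *Kcng1* and *Kcnk3* step up between the cortices with no overlap, and *Kcnn4* falls at E14.5 and is back at 7.05 to 24.2 after 12 hours of culture.

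Of 40 other excitability genes tested (sodium, calcium and HCN channels and channel partners), 32 rose and 3 fell with age, with a median of 1.31. Examples are *Cacna1e* (3.22), *Scn2a* (2.49) and *Dpp10* (3.95), a partner of Kv4 channels, whereas *Scn11a* differed by -2.14. Summed markers of postmitotic neurons, 8 of 8 detected and none at 0, were 8819.3 to 13207.1 at E11.5 and 29954.9 to 42242.2 at E14.5, and those of apical progenitors, 6 of 6 detected, 13422.0 to 17066.1 and 8807.8 to 10450.9. In the apical progenitor list *Slc1a3* and *Fabp7* went the other way. Their means rose from 329.1 and 425.2 to 877.6 and 659.2 in controls, and from 317.7 and 257.7 to 895.5 and 493.9 in mutants. The part of these markers in the channel results was not tested, and in bulk tissue more cells of a type and more RNA per cell cannot be told apart.

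On culture the members split. After 12 hours in vitro, 12 members (15%) were higher and 16 (20%) lower than in the E14.5 cortex of the same embryos (limma), and 52 did not pass. Of all genes, 23.6% were called, 9.48% higher and 14.1% lower. The median log2 difference was -0.38 over the members and -0.12 over all genes; quantile normalization moved the latter to 0.02, and small negative differences are relative to that shift. With the embryo as a block 25 members were called, 24 of them shared. With 3 against 3 libraries of one genotype, 11 were called in the controls (9.09% of all genes) and 6 in the mutants (5.54%), 5 of them in both, and all 28 had the same sign in both genotypes.

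The higher members were led by *Kcnc1* (Kv3.1), which marks fast-spiking neurons in the adult. It was at 208 to 397.5 in the E14.5 cortices, with a median of 244, and at 821 to 1828.8 after 12 hours, with a median of 1431.7. No culture came near any cortex, and the log2 difference was 2.26 (SE 0.18, adjusted p = 9.1e-08 from limma). It was at 26.8 to 63.0 at E11.5, and so rose with age too, by 2.61 (SE 0.20).

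*Kcna1* (Kv1.1), an axonal channel, had 22.1, 35.3 and 70.6 in the cortices and 77.0, 154 and 261 in the cultures. The log2 difference was 1.92 (SE 0.24, adjusted p = 1.4e-05 from limma), without overlap. *Kcnd3* was higher by 0.93 (SE 0.16, adjusted p = 3.2e-04 from limma), at 158 to 231 against 82.0 to 119, again with the groups apart, though it missed the threshold within the mutants (adjusted p = 0.0807 from limma). Other rises that passed were those of *Kcnk1* (0.92), *Kcnj4* (1.42), *Kcnn2* (0.65), *Kcnh8* (0.55) and *Kcnmb4* (0.51).

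*Kcnn4* was higher by 2.33 (SE 0.53, adjusted p = 0.0037 from limma), at 7.05 to 24.2 in the cultures and 0 to 3.31 in the cortices. Its call was lost within either genotype (adjusted p = 0.0704 in controls and 0.108 in mutants, limma). Summed erythroid markers were 32442.0 to 65933.1 in these cultures, above the 15792.1 to 19986.5 of the cortices. After 24 hours these sums had come down to 19312.9 to 35547.8, while *Kcnn4* had not, at 7.17, 20.03 and 31.25 (lowest, median, highest). The part of the erythroid markers was not tested. *Kcnq1ot1*, the long noncoding antisense transcript of *Kcnq1* that is expressed from the paternal allele, was higher by 1.11 (SE 0.18, adjusted p = 3.0e-04 from limma). It ranged over 743.5, 1192.2 and 1580.9 in the cultures and 421, 515.5 and 772 in the cortices, so that the lowest culture lay below the highest cortex, and it missed the threshold within the mutants (adjusted p = 0.136 from limma).

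The lower members were led by *Kcnj8* (Kir6.1), the ATP-sensitive channel of pericytes and smooth muscle. It was at 12.9, 19.2 and 27.9 in the cortices, and at 0 in 5 of 6 cultures at 12 hours and 3.52 in the other. The log2 difference was -3.95 (SE 0.51, adjusted p = 2.7e-05 from limma), and it was -6.70 with a pseudocount of 0.1 and -2.13 with a pseudocount of 5. Its partner subunit *Abcc9*, a listed pericyte gene, had a difference of -5.35.

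Summed pericyte and smooth muscle markers, 5 of 5 detected, were 436 to 587 in the E14.5 cortices and 22.0 to 83.1 at 12 hours. Those of the endothelium, 5 of 5 detected, were 721 to 845 and 20.5 to 84.2, with 1 marker at 0 in the control cultures. Microglia markers, 5 of 5 detected, were 345 to 777 and 4.21 to 37.8, with 1 at 0 in the mutant cultures. Their part in the *Kcnj8* result was not tested, and fewer cells and less RNA per cell cannot be told apart here.

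All 4 Kcne members had negative differences and 3 passed. *Kcne1l*, an X-linked partner of *Kcnq1* and other channels, had 58.7, 84.6 and 99.4 in the cortices and 7.80, 19.2 and 28.4 in the cultures, which did not overlap. It fell by 2.28 (SE 0.34, adjusted p = 1.1e-04 from limma). *Kcne2*, which is abundant in choroid plexus, fell by 2.16 (SE 0.59) and *Kcne4* by 1.47 (SE 0.49). Summed choroid plexus markers in the control cultures were 1109.2 to 3869.1 at 12 hours and in the mutant cultures 4810.2 to 16313.8, beside 3264.0 to 5486.9 and 891 to 7860.0 in the cortices. The control ranges moved down and the mutant ranges up, and their part in the *Kcne2* result was not tested.

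Among the other lower members, *Kcnip4* went from 10.2, 13.0 and 26.9 to 0, 0.526 and 9.39, a log2 difference of -2.89 (SE 0.59, adjusted p = 0.0016 from limma), and missed the threshold within the controls (adjusted p = 0.136 from limma). *Kcng1* fell from 59.5, 95.5 and 120.0 to 12.6, 27.6 and 56.4, by 1.63 (SE 0.33, adjusted p = 0.0015 from limma), and missed it within the mutants (adjusted p = 0.101 from limma). In both the groups did not overlap.

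*Kcna5* fell from 1.57, 4.62 and 7.90 to 0 in 5 cultures and 0.759 in 1, by 2.21 (SE 0.48, adjusted p = 0.0027 from limma), at counts of a few reads. *Kcnq3* fell by 0.59 (SE 0.13, adjusted p = 0.0039 from limma), from 329.6 to 547 in the cortices to 182 to 377.5 in the cultures, which overlap. Neither passed within a single genotype (adjusted p = 0.0801 and 0.0653 for *Kcna5* and 0.0538 and 0.152 for *Kcnq3*, controls and mutants, limma).

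**Figure D3:**
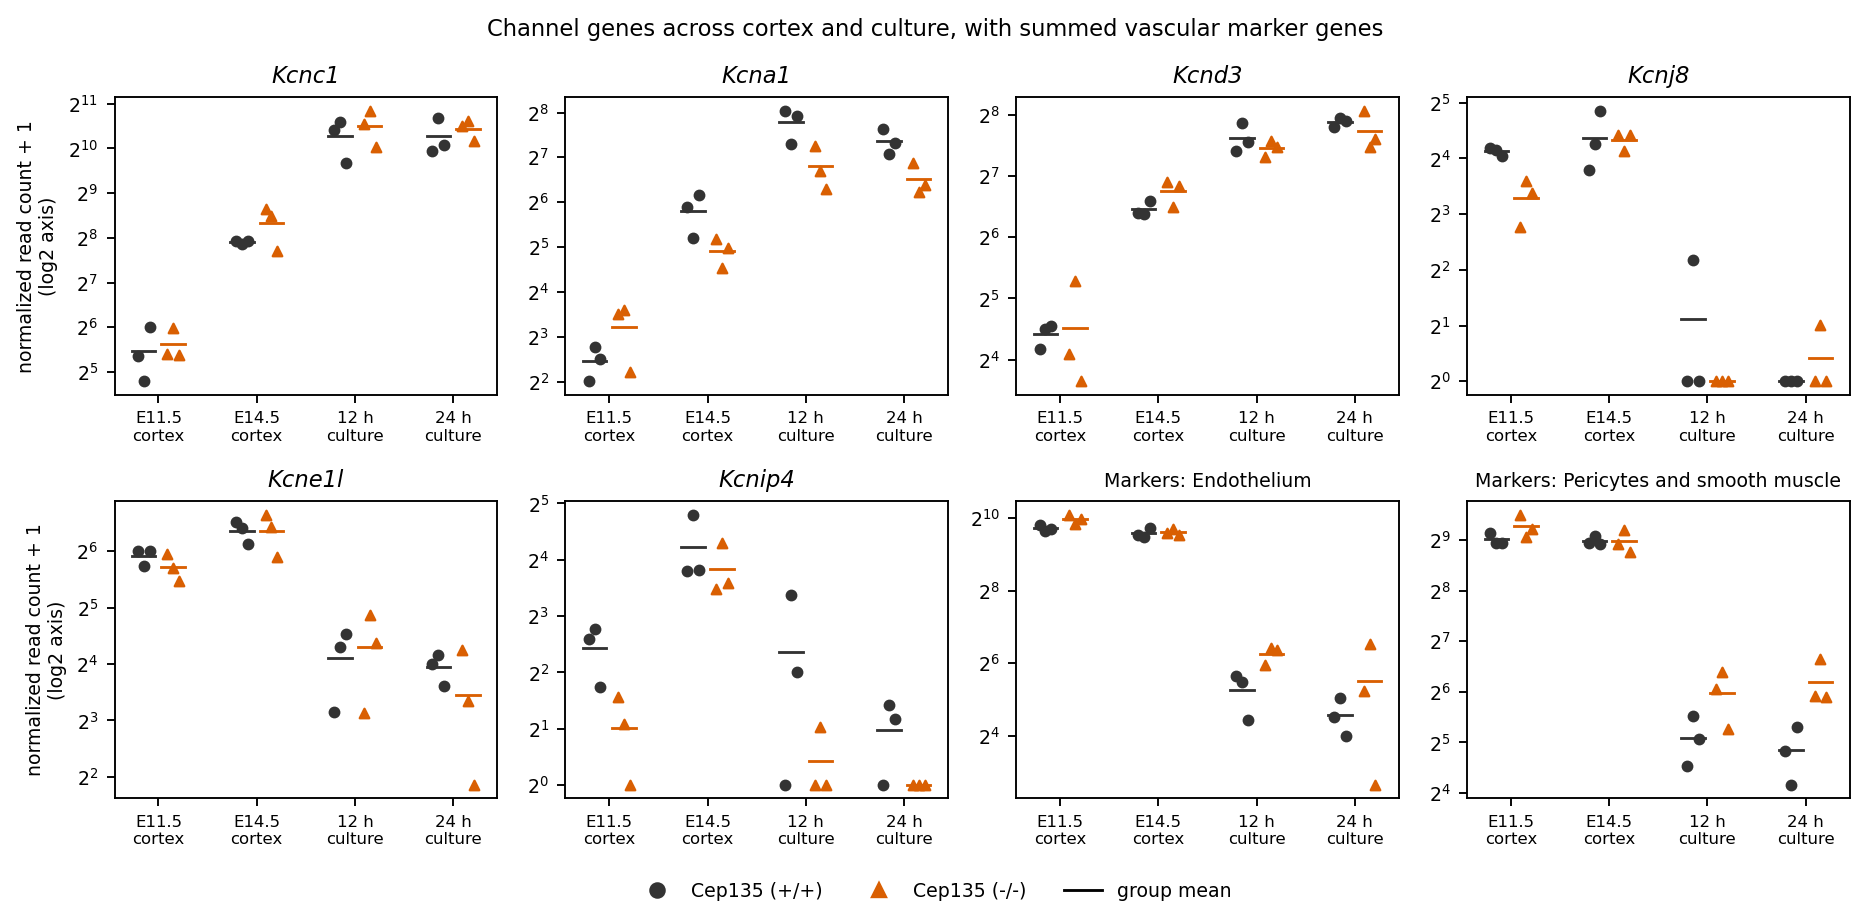
Normalized read count plus 1 (log2 axis) in each library for 6 members, and the summed endothelial and pericyte or smooth muscle markers, by group and genotype, with group means as bars. *Kcnc1* and *Kcna1* are higher in culture than in any E14.5 cortex, *Kcnj8* drops to 0 in 5 of 6 cultures at 12 hours, and both marker sums drop from the cortices to the cultures.

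Of the 40 other excitability genes, 5 were higher and 7 lower at 12 hours, with a median of -0.18. *Cacna1e* (1.46) and *Scn1a* (1.01) were among the higher. *Cntnap2* (-1.08), which clusters Kv1 channels along axons, was among the lower.

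Between 12 and 24 hours of culture no member passed (limma), with 6 at an unadjusted p under 0.05 (7.50%, beside 8.76% of all genes). Of all genes 0.0993% were called, 0.0596% higher and 0.0397% lower. *Kcnh5* (EAG2), the member with the smallest p and named after its values were seen, was at 0, 1.21 and 3.15 at 12 hours and 6.98, 8.93 and 20.2 at 24 hours, without overlap. Its log2 difference was 2.54 (SE 0.51, adjusted p = 0.0856 from limma), and it passed with all 24 libraries in one fit (adjusted p = 0.00855 from limma). *Kcnc1*, at 990 to 1639.7 after 24 hours, differed by -0.02 (SE 0.18) and *Kcnj8*, at 0 in 5 of 6 cultures at 24 hours, by -0.19 (SE 0.43).

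By genotype no single member passed the test in any group, while more members were lower than higher in the mutants. At an adjusted p under 0.05 from limma 0 of 80 members were called in the E11.5 cortices (0.00% of all genes), the E14.5 cortices (0.00496%), the 12-hour cultures (0.00%), the 24-hour cultures (0.00%) and all 12 cortices fitted together (0.0794%). At an unadjusted p under 0.05 there were 7, 8, 5, 13 and 13, or 8.75%, 10%, 6.25%, 16.2% and 16.2%, beside 7.01%, 7.58%, 5.09%, 9.29% and 7.74% of all genes. The first 3 shares lie near those of all genes. Negative differences were seen in 49, 45, 56, 53 and 52 of the 80, with medians of -0.11, -0.03, -0.30, -0.23 and -0.13, beside 0.01, 0.02, -0.03, -0.01 and 0.01 over all genes. Of all 20141 genes, 9824, 9637, 10565, 10280 and 9756 had negative differences. In the first 4 of these groups 2, 0, 6 and 6 members had one genotype at 0 and the other at or under 3 reads a library; leaving them out, with *Kcnk13* at its bound at 24 hours, gave medians of -0.11, -0.03, -0.28 and -0.23. The 40 other excitability genes had medians of -0.15, -0.01, -0.18, -0.22 and -0.08, with 0 called. The members share libraries and these counts carry no test.

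Members whose 3 mutants all lay below the 3 controls numbered 11 in the younger cortices (6.10% of all genes), 11 in the older (5.78%), 4 in the 12-hour (5.35%) and 15 in the 24-hour cultures (7.53%). In shares of the 80 these are 13.75%, 13.75%, 5% and 18.75%. Those with the mutants all above numbered 2 in each group, or 2.5%, beside 6.07%, 6.43%, 4.13% and 6.32% of all genes. At 12 hours the lower share is thus close to that of all genes. By class, the auxiliary subunits had negative differences in 7, 9, 8 and 12 of 13 in the same order, and the inward rectifiers in 7, 5, 10 and 6 of 14.

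In the E11.5 cortices the members with the smallest p were 2 Kv4 partners and a Kv1 subunit. *Kcnip1* was at 34.8, 25.7 and 21.6 in mutants 1, 2 and 3 and at 44.3, 48.5 and 46.6 in controls 1, 2 and 3. All mutants lay below all controls, by 0.77 on the log2 scale (SE 0.23, adjusted p = 0.669 from limma). *Kcna4* was at 0.645, 0 and 1.44 against 3.02, 3.35 and 2.33, a difference of -1.29 (SE 0.41, adjusted p = 0.669 from limma) at counts of 0 to 4 reads. *Kcnip4*, at 1.94, 1.12 and 0 against 5.04, 5.85 and 2.33, differed by -1.49 (SE 0.52, adjusted p = 0.696 from limma). Marker sums that did not overlap here were those of interneurons and ventral telencephalon, 935.3 to 1142.2 in mutants and 1345.3 to 1586.4 in controls, choroid plexus, 1114.7 to 1191.2 and 835.4 to 958.4, and endothelium, 924.7 to 1094.0 and 807.8 to 892.8. All their markers were detected in both genotypes. The choroid plexus sum was mostly *Otx2*, with means of 874.2 in mutants and 692.1 in controls, beside 115.2 and 104.2 for *Ttr*. In the endothelial list *Cldn5* went the other way, with means of 42.4 and 47.9. The part of these markers was not tested.

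In the E14.5 cortices *Kcnj3* came first. It was at 29.4, 29.8 and 32.1 in mutants 1, 2 and 6 and at 65.9, 53.0 and 74.1 in controls 3, 4 and 5. The mutants were close to each other and about 2.06-fold below the controls, a log2 difference of -1.04 (SE 0.23, adjusted p = 0.526 from limma). *Kcnq3* was at 370, 359 and 329.6 against 454, 536 and 547, a difference of -0.53 (SE 0.12, adjusted p = 0.557 from limma). *Kcnh7* (ERG3), a neuronal relative of *Kcnh2*, was at 107, 98.3 and 139 against 160.0, 147 and 171, a difference of -0.48 (SE 0.17, adjusted p = 0.647 from limma).

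In all 3 the genotypes did not overlap. Summed markers of postmitotic neurons, 8 of 8 detected and none at 0, were 29954.9 to 32084.1 in these mutants and 39455.6 to 42242.2 in the controls, also without overlap. Microglia markers, 5 of 5 detected, were 635 to 777 and 345 to 378, and those of oligodendrocyte precursors 234 to 311 and 187 to 232. In the latter list *Olig1* and *Sox10* went the other way, with means of 22.35 and 7.13 in mutants and 28.93 and 12.54 in controls. The part of these markers in the channel differences was not tested. With a term for embryo sex the differences were -0.97 for *Kcnj3*, -0.63 for *Kcnq3* and -0.19 for *Kcnh7* (adjusted p = 0.833, 0.833 and 0.849 from limma), so that of *Kcnh7* was much smaller.

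After 12 hours in culture the 3 with the smallest p were *Kcnip2*, *Kcna1* and *Kcnq5*. *Kcnip2*, a Kv4 partner, was at 56.5, 32.6 and 45.7 in mutants 1, 2 and 6 and at 88.1, 146 and 89.6 in controls 3, 4 and 5, a difference of -1.24 (SE 0.34, adjusted p = 0.871 from limma). *Kcna1* was at 151, 103 and 77.0 against 261, 156 and 241, a difference of -1.003 (SE 0.32, adjusted p = 0.871 from limma). *Kcnq5* was at 19.5, 8.42 and 6.27 against 42.5, 47.0 and 22.0, a difference of -1.70 (SE 0.64, adjusted p = 0.871 from limma). Each was lower in 3 of 3 mutants, though in *Kcna1* and *Kcnq5* the highest mutant lay close to the lowest control. Neuron markers were at 28373.4 to 38063.2 in these mutants and 32874.9 to 45425.4 in the controls, which overlap. Sums that did not overlap were those of choroid plexus, 4810.2 to 16313.8 and 1109.2 to 3869.1, intermediate progenitors, 1323.1 to 1419.5 and 1095.5 to 1258.8, endothelium, 60.5 to 84.2 and 20.5 to 48.8, and microglia, 4.21 to 12.7 and 14.1 to 37.8. In the endothelial list *Pecam1* and *Cdh5* went the other way, with means of 17.5 and 0.949 in mutants and 29.0 and 1.17 in controls. *P2ry12* did so in the microglia list, with means of 0.325 and 0.253. Liver markers did not overlap either, at 5218.7 to 15845.5 and 1743.1 to 4715.7, with 1 at 0 in each genotype. Within that list only *Ttr* was higher in mutants, with means of 9570.7 and 2166.2. The part of all these markers was not tested.

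After 24 hours *Kcnv1* (Kv8.1), a silent subunit of neurons, was at 20.1, 10.1 and 6.98 in mutants 1, 2 and 6 and at 65.5, 53.9 and 60.0 in controls 3, 4 and 5. The controls were close together and every mutant was far below them. The log2 difference was -2.30 (SE 0.43), or 4.92-fold on the scale of the value plus 1, with an adjusted p of 0.284 from limma. It was the only member that any of the alternatives called by genotype: its adjusted p was 0.0178 with all genes above 0 and 0.0444 with genes of a mean of at least 10 (limma), 0.0109 from edgeR and 0.00288 from DESeq2 on whole reads. In that order these fits called 140, 36, 117 and 158 genes in all, and the main fit 0. In the other groups *Kcnv1* was lower by 1.38 at E11.5, 0.69 at E14.5 and 1.13 at 12 hours (limma), with adjusted p of 0.697, 0.727 and 0.871. The genotype effect at 24 hours did not differ detectably from that at 12 hours (interaction -1.17, SE 0.70, adjusted p = 1 from limma).

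Next at 24 hours came *Kcnip1*, at 127.5, 83.0 and 128 against 212, 179 and 220.0, a difference of -0.87 (SE 0.21, adjusted p = 0.313 from limma). *Kcnj3* followed, at 49.4, 49.6 and 59.4 against 80.6, 85.9 and 93.8, a difference of -0.71 (SE 0.17, adjusted p = 0.320 from limma). In both the genotypes did not overlap. *Gm42418*, which carries ribosomal RNA sequence, took 20.5% to 23.0% of reads in these mutant cultures and 6.26% to 13.9% in the controls, and depth was 7903426 to 11645213 and 4732781 to 5709443 reads. Neuron markers were at 28054.9 to 35147.6 and 34986.0 to 42180.1. Sums that did not overlap were those of choroid plexus, mostly *Ttr*, at 5094.0 to 17077.1 in mutants and 895.1 to 3650.1 in controls, apical progenitors, at 11842.5 to 12951.9 and 9164.9 to 10470.0, intermediate progenitors, at 1206.7 to 1290.5 and 872.5 to 1023.9, and pericytes and smooth muscle, at 58.5 to 99.2 and 16.9 to 38.8. Liver markers, a list that also holds *Ttr*, were at 5117.5 to 16470.8 and 768.9 to 3510.2, with 2 at 0 in the controls. In the apical progenitor list *Vim* had means of 8398.2 in mutants and 6110.3 in controls. Only *Sox2* in that list was lower in mutants, with means of 1823.6 and 1872.0. With a term for the *Gm42418* share, *Kcnv1* differed by -2.36 (adjusted p = 0.853 from limma) and 2 members in place of 13 had a p under 0.05. The part of depth and of these markers was not tested.

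**Figure D4:**
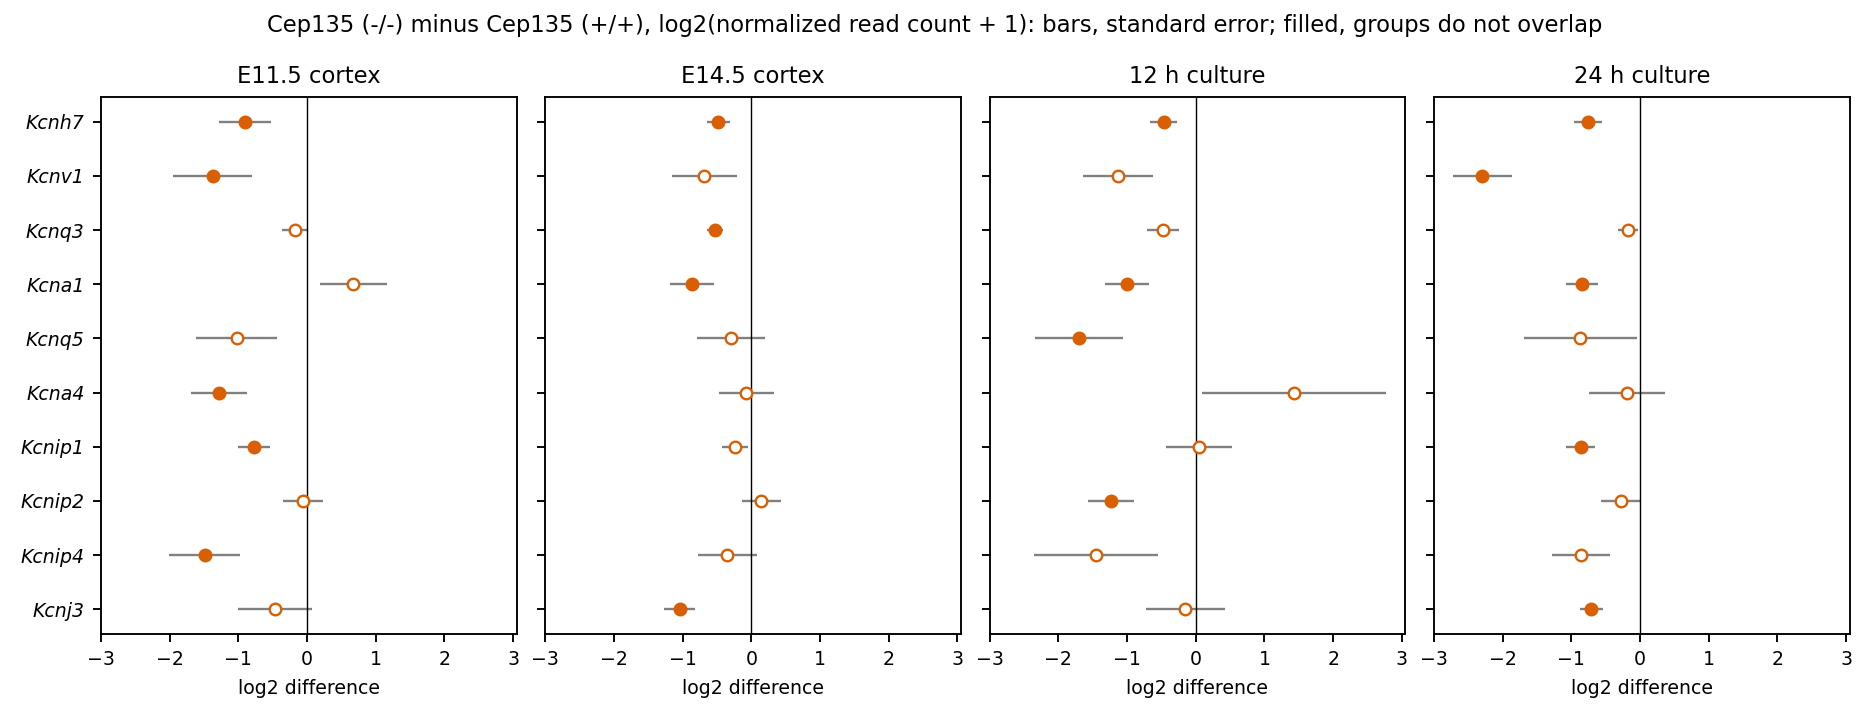
Log2 difference between mutant and control libraries (points) with its standard error (bars) for the 10 members named in the genotype comparisons, in the 4 groups. Filled points mark genes whose 3 mutants and 3 controls do not overlap: *Kcnh7* is filled and negative in all 4 groups, and *Kcnv1* at 24 hours is the lowest at -2.30.

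*Kcnh7* was the only member that lay below the controls without overlap in all 4 groups, and was also first in the 12 cortices; its recurrence was noticed after the values were seen. In mutants 1, 2 and 3 it was at 9.68, 25.7 and 17.3 at E11.5 and in the controls at 26.2, 36.0 and 32.6. Mutant 2 and control 1 were nearly tied there, by less than 1 read, which is worth 1.12 and 1.01 in these libraries. At E14.5 its difference was -0.19 with a term for embryo sex. In mutants 1, 2 and 6 it was at 149, 97.9 and 125 after 12 hours and 95.3, 95.1 and 62.9 after 24 hours, and in the controls at 184, 166 and 160.2, then 138, 135 and 150.0. Its differences were -0.90 (SE 0.38), -0.48 (SE 0.17), -0.47 (SE 0.20) and -0.76 (SE 0.20) in order of age and culture time. Over both ages together it was lower by 0.69 (SE 0.20, adjusted p = 0.368 from limma). The cultures come from the same embryos as the E14.5 cortices, so these are not 4 independent observations. Of all 20141 genes tested, 6 (0.0298%) lay below in all 4 groups.

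*Kcna1* lay below without overlap in 3 groups, 5 members did so in 2, 24 in 1 and 49 in none, or 1.25%, 6.25%, 30.0% and 61.3% of the members beside 0.422%, 2.77%, 17.8% and 78.9% of all genes. In the 12 cortices *Kcnip1* (-0.51, SE 0.16, adjusted p = 0.445 from limma) and *Kcnq3* (-0.36, SE 0.11, adjusted p = 0.446 from limma) followed *Kcnh7*. With a term for embryo sex these 3 differences were -0.54 for *Kcnh7*, -0.67 for *Kcnip1* and -0.28 for *Kcnq3*, and no member passed.

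**Figure D5:**
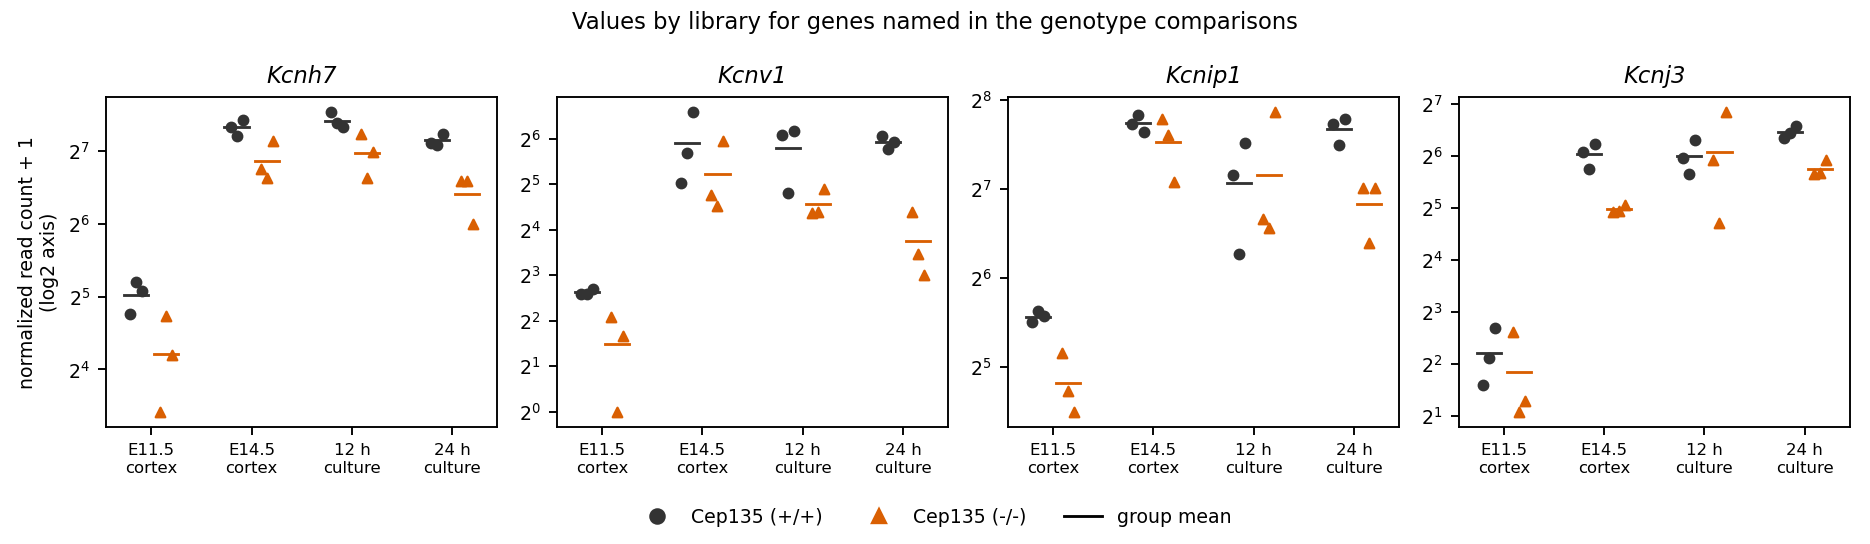
Normalized read count plus 1 (log2 axis) in each of the 24 libraries for *Kcnh7*, *Kcnv1*, *Kcnip1* and *Kcnj3*, by group and genotype, with group means as bars. The 3 *Kcnh7* mutants lie below the 3 controls in each group, and the *Kcnv1* values at 24 hours are 53.9 to 65.5 in controls and 6.98 to 20.1 in mutants.

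The genotype effect was not shown to differ between ages, between cortex and culture or between culture times. No member passed an interaction test (limma, 0.00%, 0.00% and 0.00% of all genes), with 7, 4 and 4 at an unadjusted p under 0.05, or 8.75%, 5% and 5%, beside 7.32%, 5.24% and 3.23% of all genes. The smallest p with age was that of *Kcns2* (-2.08, adjusted p = 0.661), with culture that of *Kcnip2* (-1.38, adjusted p = 0.849) and with culture time that of *Kcna3* (2.24, adjusted p = 1), all from limma and named after their values were seen. *Kcna1*, higher by 0.67 in the E11.5 mutants and lower by 0.86 in the E14.5 mutants, had an interaction of -1.53 (SE 0.61, adjusted p = 0.661 from limma).

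Members that lie side by side in the genome can be compared. On chromosome 6 (GRCm38, GENCODE vM21) *Kcna5* (126532551 to 126535412), *Kcna1* (126640397 to 126646384) and *Kcna6* (126708329 to 126740674) lie in a row on the minus strand. With age *Kcna1* and *Kcna6* rose by 2.56 (SE 0.35) and 1.15 (SE 0.18), and *Kcna5* had a difference of -0.30 (SE 0.40). On culture *Kcna1* rose by 1.92, *Kcna5* fell by 2.21, and *Kcna6* had a difference of -0.03 (SE 0.20). These were single-gene tests, and the difference between neighbours was not tested. The neighbours *Kcna2* and *Kcna3* on chromosome 3 both rose with age, by 1.99 (SE 0.31) and 1.48 (SE 0.40).

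The overlapping transcripts are counted by strand and so apart from their genes. *Kcnq1ot1* (chromosome 7, 143203458 to 143296549, minus strand) lies within *Kcnq1* (143106362 to 143427042, plus strand). With age *Kcnq1* fell by 0.99 and *Kcnq1ot1* had a difference of -0.26 (SE 0.17), and on culture *Kcnq1* fell by 1.46 (SE 0.47) and *Kcnq1ot1* rose by 1.11. *Kcnd3os* overlaps the start of *Kcnd3* and had only 0 to 10.9 normalized read counts. *Kcnmb4os2* overlaps *Kcnmb4* and was at 23.2 to 51.1 in all 24 libraries, with differences of 0.22 (SE 0.20) with age and -0.03 (SE 0.30) on culture.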

How the data were processed

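RNA was sequenced from 12 embryonic cortices and 12 neurosphere cultures. Per the labels the authors made stranded QuantSeq 3′ libraries, aligned reads to GRCm38 with TopHat2 (2.0.10) and counted them with HTSeq (0.6.1) on GENCODE vM20. They deposited 1 table of signal, the read counts divided by 1 size factor per library, called normalized read counts here. Whole reads could be recovered in 23 of the 24 libraries (tolerance 0.001) and not in E11.5 control 1, so no count test was run with E11.5 cortices. Depth was 4732781 to 11645213 reads, and errors cover the spread between 3 embryos a group only.

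Values were compared as log2(value + 1) with limma (3.58.1, R 4.3.3; intensity trend) over 20141 genes (mean at or above 1), adjusted by Benjamini-Hochberg, threshold 0.05, two-sided. Fold changes are on this scale, which understates the change of low genes. Age, culture and culture time were fitted with genotype as a term. Cortex, 12-hour and 24-hour libraries share embryos, so the embryo number pairs them: same-embryo deviations correlated at -0.0345 to 0.109 in 12 pairs, and the embryo as a block was the alternative. The members, gene lists and tests were chosen with earlier results of these data known. The text names, per comparison, the 6 higher and 6 lower called members with the smallest p, or by genotype the 3 with the smallest p where fewer than 3 passed, with others where stated or as examples of a class chosen after their values were seen. Some members are counted but not reported here by name. Alternatives were a looser threshold of 0.1, a pseudocount of 0.1 or of 5, no filter, a mean of at least 10, TMM or quantile scaling, 1 fit of all 24 libraries, edgeR (4.0.16) and DESeq2 (1.42.0) on whole reads, terms for sex, title prefix or *Gm42418* share, the block, 1 genotype, and each library left out. The fits were tested on simulated data. Promoters and gene positions came from RefSeq (GRCm38.p6) and GENCODE vM21.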

Additional observations from a re-analysis of the deposited data

How the results depend on the processing

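Across 803 alternative values of the 38 named results (26 genes), 781 kept their direction and their side of the threshold, 18 missed the threshold with the same direction, 4 newly passed it and 0 reversed. Of 228 alternative counts of called members, 220 stayed within 1.5 times the main count. The other 8 were as follows. On culture 28 members were called, but 11 with control libraries only and 6 with mutant libraries only, where 3 libraries faced 3. By genotype at 24 hours 0 were called, but 1, *Kcnv1*, with all genes above 0, with a mean of at least 10, with edgeR and with DESeq2. Over all genes these 4 settings called 140 of 26213, 36 of 13300, 117 of 20141 and 158 of 20141, and the main fit 0. Between 12 and 24 hours 0 were called, but 1, *Kcnh5*, at an adjusted p under 0.1 and with all 24 libraries in one fit. The fits of 1 genotype have fewer libraries; for the other 6 the cause was not tested.

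With the replicate block, which pairs the libraries of an embryo, 25 members were called on culture, 10 higher and 15 lower, 0 between 12 and 24 hours and 0 for the interactions with culture and with culture time (0 without it for the last 3). Leaving out each library in turn gave 52 to 56 calls with age, 49 members in every fit, and 21 to 32 on culture, 19 in every fit, and 0 in every comparison by genotype. A filter at a mean of at least 10 left 40 of 50 members called with age (80.0%, beside 53.1% of all genes) and 19 of 54 on culture (35.2%, beside 30.2%). Depth limits the inward rectifiers and other genes of a few reads, where fold changes depend on the pseudocount, and 3 embryos a group limit the genotype comparisons.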
